A study of Danio rerio with 4 samples.

Results

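Epidermal cells made up 337 of the 42951 cells kept from a sort for endothelial fluorescence, and they are described here across the 4 single-cell libraries of the study. The embryos were zebrafish of the Tg(kdrl:GFP) zn1 line, in which a kdrl promoter drives GFP mainly in endothelium, and all were 26 hpf (hours post fertilization). GFP+ cells of pooled dissected trunks that held the aorta-gonad-mesonephros were sequenced by 10x Genomics 3′ tags, with 1 library for each of 4 groups. The groups were WT, a miR-128 mutant (the mutant) without miR-128-1 or miR-128-2, and the edited groups csnk1a1 g3UTR and jag1b g3UTR. The edited groups came from embryos injected at the one-cell stage with a guide RNA and Cas9 mRNA. The guide was against the miR-128 site in the 3′UTR of the named gene. Such an embryo can be a mosaic of edited and unedited cells, and the share of edited cells was not given. The miR-128 genes of both groups were intact. GEO's label calls the sorted cells endothelial.

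A barcode was kept with at least 200 genes and at most 35000 UMIs (unique molecular identifiers, 1 per captured transcript tag). A kept cell was counted as epidermal when it had no UMI of the endothelial cadherin cdh5, at least 3 of the 6 genes epcam, cldni, krt4, krt5, tp63 and cyt1 with at least 5 UMIs in all, and no more than 2 of the mesenchymal genes twist1a, twist1b, col1a2, foxc1b, pax9 and prrx1a. These measured values chose the members, so their levels are a description and no finding. The members numbered 69 in WT, 40 in the mutant, 106 for csnk1a1 g3UTR and 122 for jag1b g3UTR, and no member barcode occurred in more than 1 library. With 1 library a group there is no replicate and no test: intervals are exact, at 95%, and cover counting error only, neither variation between cells nor between embryos. Both g3UTR libraries carried a later Cell Ranger version in their headers than WT and the mutant, so genotype and library preparation or processing cannot be told apart.

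The skin of the zebrafish embryo is a bilayer. The superficial layer, the periderm, seals the body surface with tight junctions and a keratin and plakin network, and the basal layer is anchored to a basement membrane of laminins and collagens by integrins and is marked by the transcription factor tp63. Basal cells at the trunk and tail edge fold into the median fin fold, whose actinodin fibrils stiffen the fin, and ionocytes scattered in the skin exchange ions with the water.

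The selection genes filled a median of 6.12% of a member's UMIs in WT, 5.45% in the mutant, 4.11% for csnk1a1 g3UTR and 3.05% for jag1b g3UTR. All 6 genes were found in 135 members and only 3 of them in 80. At the threshold, 18 members had 5 to 9 UMIs of these genes, and 21 cells outside had 3 or 4 UMIs and were otherwise eligible. In 52 members the genes held under 1% of the UMIs, 27 of them in csnk1a1 g3UTR, so this library held the most cells with a weak epidermal signal. Among cdh5-positive cells, which should lack it, the keratin krt4 had a UMI in 5.77% in WT, 6.09% in the mutant, 15.2% for csnk1a1 g3UTR and 11.6% for jag1b g3UTR, at median depths of 10462, 9412, 7488 and 5606 UMIs. Median depth of the members was 13459 UMIs in WT, 11909 in the mutant, 8400 for csnk1a1 g3UTR and 3245 for jag1b g3UTR, and 10, 8, 19 and 45 members had under 2000 UMIs. The jag1b g3UTR members were thus the shallowest, also against the cdh5-positive cells of their own library.

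**Figure D1:**
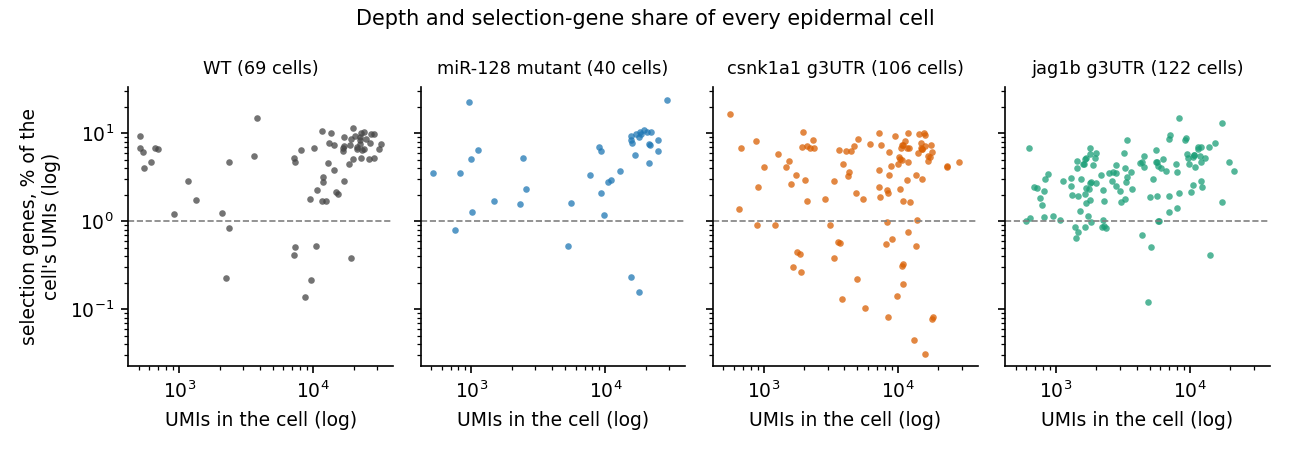
Each point is 1 epidermal cell, with its UMIs on the x axis and the percent of them from the 6 selection genes on the y axis, both on log scales, and the dashed line marks 1%. Cells below the line number 8 in WT, 4 in the mutant, 27 for csnk1a1 g3UTR and 13 for jag1b g3UTR.

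Genes that the rule did not use were those of epidermis. E-cadherin (cdh1) had a UMI in 76.8% of members in WT, 77.5% in the mutant, 82.1% for csnk1a1 g3UTR and 86.1% for jag1b g3UTR, against 0.769% to 1.76% of cdh5-positive cells. The hemidesmosome integrin itgb4 was found in 58.0%, 60%, 69.8% and 53.3% of members in the same order and in 1.03% to 1.27% of cdh5-positive cells. Both genes therefore separated the members from endothelium in every library. The reporter gene kdrl had a UMI in 18.8% of members in WT, 20% in the mutant, 17.9% for csnk1a1 g3UTR and 30.3% for jag1b g3UTR, against 96.9% to 98.3% of cdh5-positive cells. With every cell thinned to 3000 UMIs the shares with kdrl were 8.93%, 19.4%, 13.9% and 23.5% in members and 7.69%, 7.32%, 16.7% and 9.62% in trunk mesenchyme (cells without cdh5 that had 3 or more of the mesenchymal genes). A cell sorted as GFP+ thus lacked a detected kdrl UMI in most members, which at this depth does not show that the transcript was absent. At least 3 of 16 endothelial genes were found in 24 members.

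The epidermal share of kept cells was higher in both g3UTR libraries than in WT. It was 0.546% in WT (69 of 12626, Clopper-Pearson interval 0.425 to 0.691%), 0.416% in the mutant (40 of 9604, 0.298 to 0.567%), 1.14% for csnk1a1 g3UTR (106 of 9293, 0.935 to 1.38%) and 1.07% for jag1b g3UTR (122 of 11428, 0.887 to 1.27%). The ratio to WT was 0.762 for the mutant (exact conditional interval 0.503 to 1.14), 2.09 for csnk1a1 g3UTR (1.53 to 2.87) and 1.95 for jag1b g3UTR (1.44 to 2.66), and the share in csnk1a1 g3UTR was 1.07 times that in jag1b g3UTR (0.816 to 1.40). The interval of the mutant ratio included 1, and so did that between the 2 edited libraries. Since the rule counts UMIs, the shares were also taken after thinning each cell to 3000 UMIs, where they were 0.493%, 0.405%, 0.878% and 0.775%, with ratios to WT of 0.821, 1.78 and 1.57. Leaving out members that carried notochord or erythroid genes gave ratios of 0.735, 1.60 and 1.66.

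**Figure D2:**
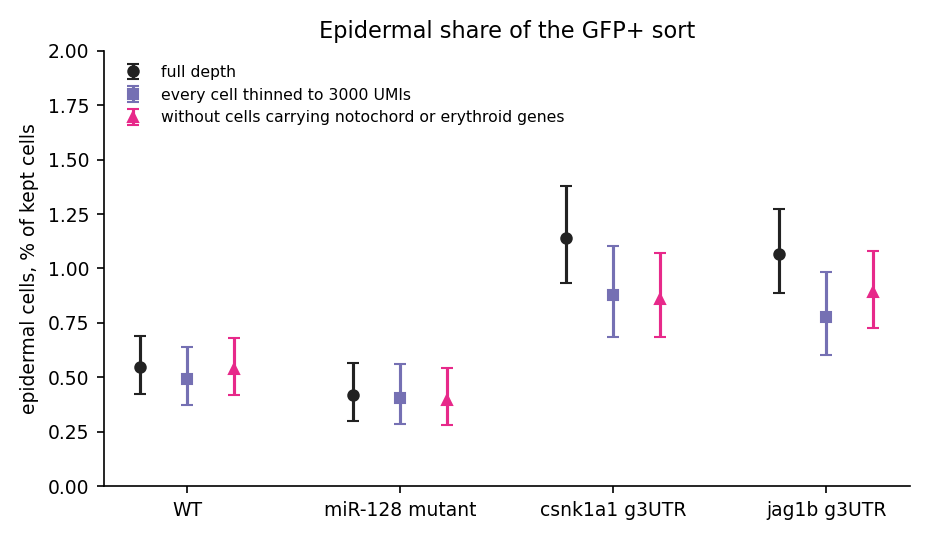
Epidermal cells as a percent of the kept cells of each library, with exact 95% binomial intervals that cover counting error only, at full depth (circles), with every cell thinned to 3000 UMIs (squares) and without members carrying notochord or erythroid genes (triangles). In each setting the csnk1a1 g3UTR and jag1b g3UTR points lie above the WT and mutant points, with full-depth shares of 1.14% and 1.07% against 0.546% and 0.416%.

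Members were next set against cdh5-positive cells gene by gene, on UMIs summed over the cells of a library in CPM (UMIs of a gene scaled to a common total per library) with 5 CPM added. UMIs tag transcript ends, so CPM is not scaled by gene length, and levels are compared here only for one gene or list across populations. Of 20031 genes tested, 1022 (5.10%) were over 2-fold higher and 1349 (6.73%) over 2-fold lower in members in each of the 4 libraries. Because the members were picked by their expression, this contrast is a description, and the background percentages are given only to size the list counts. Of 16 superficial-layer genes 13 were higher, with a median over the libraries of 4.02 on the log2 scale. Of 11 basal-layer genes 9 were higher, with a median of 4.20. Genes of the junction list, which also holds the splicing regulators esrp1 and esrp2, were higher for 13 of 17, and median fin fold genes for 9 of 13. The median over all genes tested was -0.14. All 16 endothelial genes tested were lower, as the bar on cdh5 would favour, and none of the 5 ionocyte genes tested was higher in all libraries.

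The leading gene was krtt1c19e, a keratin of basal epidermal cells, at 1556 CPM in WT, 1900 in the mutant, 3319 for csnk1a1 g3UTR and 1817 for jag1b g3UTR, against 0.309 to 4.52 CPM in cdh5-positive cells. The keratin gene cyt1l followed at 11590, 15681, 6578 and 6211 CPM against 11.7 to 20.9 CPM. The members were set apart by 2 keratins of very different abundance, found in 32.0% to 43.4% and in 84.0% to 92.8% of members. The aerolysin-like gene aep1 had 1154 to 1726 CPM in members and 0.818 to 3.07 CPM in cdh5-positive cells. The tight junction gene cldn1 had 1186 to 1597 CPM in members and 1.84 to 4.70 CPM in cdh5-positive cells. Further leaders were the keratins krt97 and krt91, the actin-binding thymosin tmsb1, the annexin anxa2a, the arginine deiminase padi2, the retinol carrier rbp4, the aquaglyceroporin aqp3a and the actinodins and1 and and2. Their lowest ratio over the 4 libraries ran from 52.6 (and2) to 108 (krt97), so each separated the populations by more than 50-fold in every library.

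Many of the leaders were matrix genes. Of 46 collagen genes tested 30 were higher in members. The summed collagen list was 16107 CPM in WT, 22559 in the mutant, 26605 for csnk1a1 g3UTR and 27684 for jag1b g3UTR. These sums were above the 12951 to 16399 CPM of trunk mesenchyme, except that WT members lay within that range. In the mutant the sum included col2a1a at 3777 CPM and col9a2 at 859 CPM, from 2 cells each. How far such cells set the sums was not tested. The fibrillar chain col1a1a had 2983, 3520, 4600 and 5579 CPM in members, 31.3 to 57.8 CPM in cdh5-positive cells and 1939 to 2614 CPM in mesenchyme. The basement membrane chain col4a5 had 524, 464, 1003 and 1345 CPM in members and 16.9 to 48.1 CPM in mesenchyme. Fibrillar collagen was thus shared with mesenchyme while col4a5 was at a lower level there. The chains col4a1 and col4a2, known from vessel basement membrane, were lower in members than in cdh5-positive cells. Of the 6 mesenchymal genes that the rule allowed in part, 188 members had col1a2 and 9 had another.

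Signalling genes split between the populations. In the Wnt list 5 of 13 genes were higher in members, the ligands wnt5b and wnt10a, the receptor fzd10, the agonist rspo2 and the transcription factor tcf7, and 3 were lower. Among secreted signals bmp2a, bmp2b, bmp4, cxcl14, fgf24, igf2a and sema3aa were higher, 7 of 18, and cxcl12a, cxcl12b and vegfc were lower. In the Notch list the ligand jag1b and the receptor notch2 were higher, 2 of 22, and 5 genes typical of arterial endothelium or its targets were lower (dll4, hey2, notch1a, notch1b and nrarpb). Immediate early genes, which answer to handling as well as to growth signals, were higher for 5 of 11, and their summed level was 1834, 1822, 1948 and 2525 CPM in members against 681 to 947 CPM in cdh5-positive cells. The part of dissociation in that level was not tested.

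**Figure D3:**
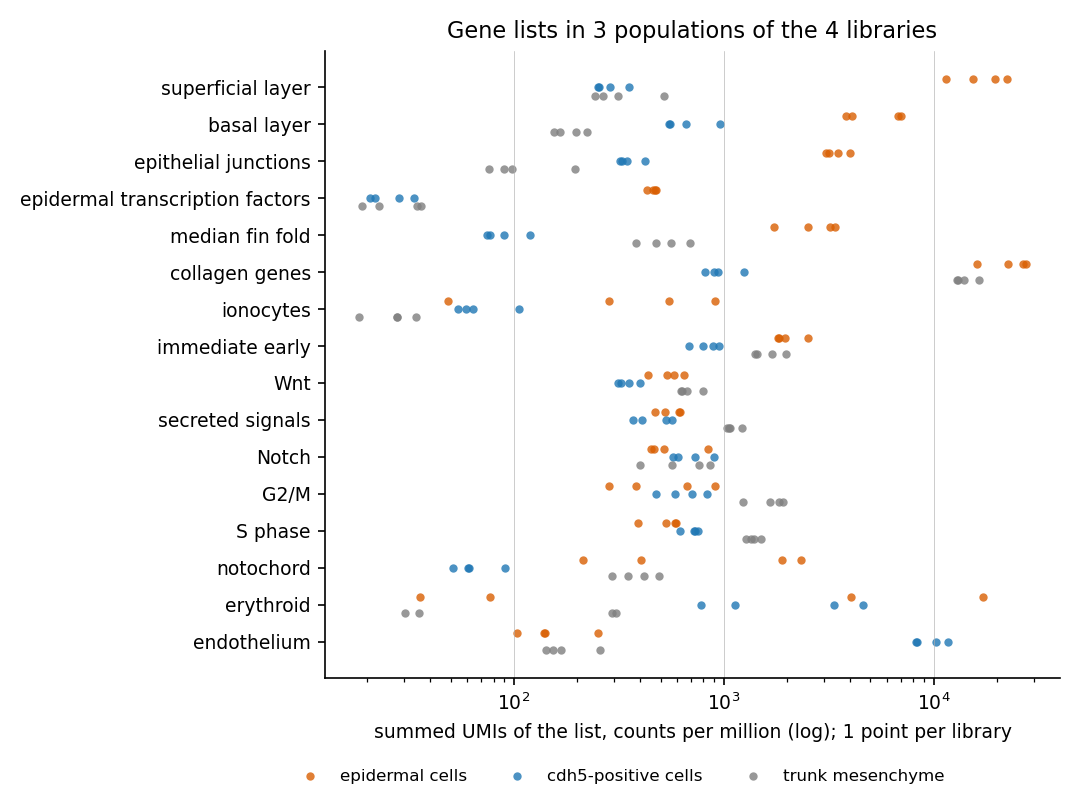
Summed level of 16 gene lists in CPM on a log axis, 1 point for each of the 4 libraries, in epidermal cells (orange), cdh5-positive cells (blue) and trunk mesenchyme (grey). The superficial, basal, junction and epidermal transcription factor lists separate the epidermal points from both other populations, while the erythroid list spans 35.7 to 17269 CPM among the epidermal points.

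Members differed in how much they held of the superficial and of the basal layer genes, and many held both. A planned split at 50% of layer UMIs put only 2, 0, 9 and 12 members in the basal range in WT, the mutant, csnk1a1 g3UTR and jag1b g3UTR. With the selection genes left out of both lists the basal range held 5.97%, 5.13%, 40.6% and 36.3% of scored members, so the split depended on those genes in the edited libraries and gave few basal cells in the others either way. Members were therefore grouped, after seeing this, by whether they carried a list, meaning at least 3 of its genes with at least 5 UMIs in all. The basal list was carried by 225 members (45, 26, 77 and 77 by library), 141 of them with the superficial list as well, the superficial list without the basal list by 74 (20, 11, 12 and 31) and neither list by 38. Carrying depends on depth: median UMIs were 19150, 16802, 9481 and 5019 in the basal set and 2291, 1127, 3660 and 2231 in the superficial set. At 3000 UMIs a cell the basal list was carried by 60.7%, 75%, 77.8% and 76.5% of members and the superficial list by 46.4%, 36.1%, 44.4% and 47.1%, with overlapping intervals among libraries for both.

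**Figure D4:**
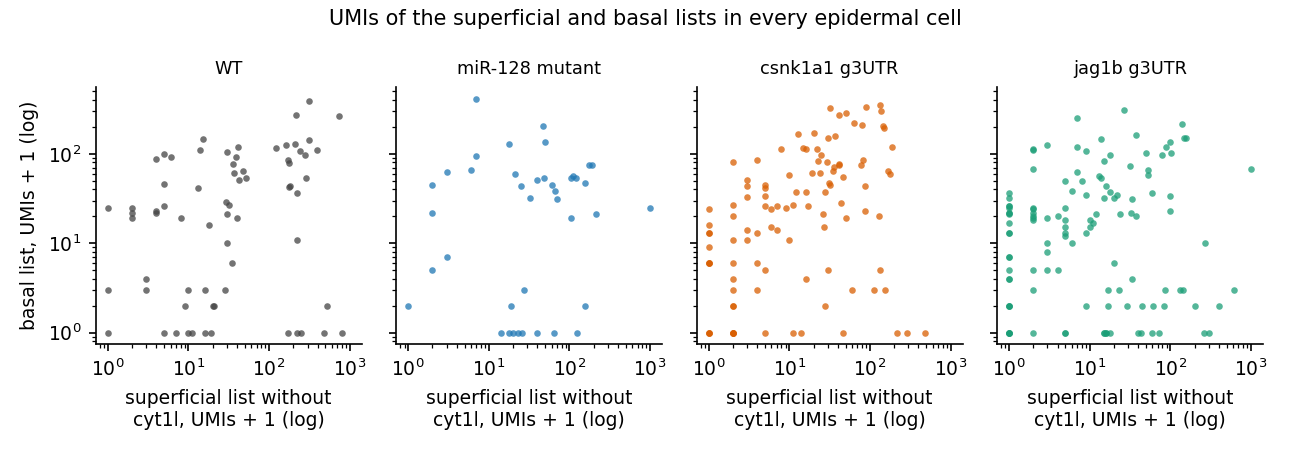
Each point is 1 epidermal cell, with UMIs of the superficial list without the keratin cyt1l on the x axis and of the basal list on the y axis, both plus 1 and on log scales. Over the 4 libraries 132 cells had 10 or more UMIs of each list, 84 had 10 or more of the basal list alone, 66 of the superficial list alone and 55 of neither.

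Basal-set and superficial-set cells differed widely in genes that the lists did not use. Of 4328 genes tested, 539 (12.5%) were over 2-fold higher in basal-set cells and 127 (2.93%) in superficial-set cells in each of the 4 libraries. This is again a description, since the sets were cut from the same counts and differ in depth. Of 32 collagen genes 26 were higher in the basal set and none in the superficial set. The retinol carrier rbp4 led, at 1048, 694, 1032 and 665 CPM in basal-set cells and with no UMI in the superficial set. The chain col1a1a followed, at 3373, 3958, 5733 and 7043 CPM in basal-set and 55.6, 0, 88.7 and 123 CPM in superficial-set cells. The next were the proteoglycan osteoglycin gene ogna, the matrilin matn4, col28a2a, col5a2a, the fibronectin fn1b, ecrg4a, and3 and col1a1b. Collagens and other matrix genes thus made up most of these 10 leaders. The Wnt genes fzd10, rspo2, tcf7, wnt10a and wnt5b, 5 of 6 tested, and the signals bmp2a, bmp2b, bmp4, igf2a, pdgfaa and sema3aa, 6 of 7, were all on the basal side. For wnt10a the basal-set level was 76.5, 109, 164 and 143 CPM and no UMI was found in the superficial set of any library, where only 74 cells of low depth were available.

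A few barrier genes were on the superficial side. Of 15 genes of the junction list 3 were higher there (cldnb, oclnb and the splicing regulator esrp2) and none in the basal set. Of 6 claudins 2 were higher there (cldn23a and cldnb) and 1, cldn1, in the basal set. The claudin cldnb had 2058, 2465, 1313 and 1405 CPM in superficial-set cells and 622, 622, 319 and 186 CPM in basal-set cells. The occludin oclnb had 200.3, 255.8, 106 and 185 CPM against 1.39 to 9.57 CPM, and scel (sciellin, a cornified envelope precursor in mammals) was also higher there. The leading genes beyond the lists were zgc:153665, zgc:193505, si:ch211-195b11.3, the calpain capn9, znf185, zgc:194839, tmem176l.4, hrc and gmds and an unnamed locus. For zgc:193505 the superficial-set level was 1825, 4464, 549.9 and 2398 CPM and the basal-set level at most 31.6 CPM. The protease gene capn9 had 289, 1093, 160 and 430 CPM in superficial-set cells and at most 2.43 CPM in basal-set cells. The proliferation marker mki67 had 49.0, 58.3, 139 and 164 CPM in the basal set and 167, 46.5, 195 and 492 CPM in the superficial set. In the mutant the superficial set was 11 cells with a median of 1127 UMIs, too little to read an order there.

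Smaller kinds of member were counted in the same way. Median fin fold genes were carried by 85 members (20, 11, 25 and 29), of which 79 also carried the basal list. The actinodin and1 had 693, 1446, 1526 and 1214 CPM over all members and was found in only 21.7% to 27.5% of them. Fin fold genes were thus concentrated in a minority of the members, in every library. Ionocyte genes were carried by 11 members, 4, 0, 2 and 5 by library, and the absence in the mutant, 0 of 40, allows a share of up to 8.81%. The sodium pump subunit atp1b1b had 456 UMIs in WT, 1 in the mutant, 196 for csnk1a1 g3UTR and 429 for jag1b g3UTR, from 8, 1, 6 and 12 cells. The ionocyte regulator foxi3b had 16, 1, 6 and 17 UMIs, 15 of the 16 in WT from 1 cell. A difference in ionocytes between libraries therefore rests on single cells.

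Genes of other cell types were present in some members. Notochord genes were carried by 12 members, 1, 2, 5 and 4 by library, and in the first 3 libraries these had median selection-gene shares of 0.196% to 0.314%, near the low end of all members. The notochord factor tbxta had 16, 36, 44 and 2 UMIs, from 1, 2, 5 and 2 cells, and its target and signal shha had 9, 24, 55 and 1, from 1, 2, 5 and 1 cells. In those 3 libraries the notochord-list cells had no tp63 or cldni UMI, krt4 at 103 to 309 CPM and krt5 at 1689 to 3317 CPM, so these 8 cells go against the epidermal label. The 4 cells of jag1b g3UTR had tp63 at 608 CPM and krt4 at 8717 CPM and held few UMIs of tbxta and shha. Erythroid genes were carried by 38 members, 0 of 69 in WT and 0 of 40 in the mutant, which allow shares of up to 5.21% and 8.81%, and by 22 members of csnk1a1 g3UTR and 16 of jag1b g3UTR. Among cdh5-positive cells the erythroid list was carried by 4.25%, 3.99%, 19.2% and 11.4%, so globin UMIs moved with the library in both populations. The embryonic globin hbbe3 had 9, 3, 4266 and 708 UMIs in members, and 1 cell gave 54.5% of those in csnk1a1 g3UTR and 59.0% of those in jag1b g3UTR. At 3000 UMIs a cell 3 of 72 members of csnk1a1 g3UTR carried the list, as did 3 of 68 of jag1b g3UTR.

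Between libraries, genes with at least 50 UMIs over both libraries were called past 2-fold when the ratio of CPM was over 2 or under 0.5 and its exact interval excluded 1. The mutant against WT gave 2368 genes, of which 61 (2.58%) were higher and 84 (3.55%) lower. For csnk1a1 g3UTR against WT, 3117 genes were tested, 210 (6.74%) were higher and 112 (3.59%) lower. For jag1b g3UTR against WT, 2866 genes were tested, 430 (15.0%) were higher and 113 (3.94%) lower. These 3 comparisons share the WT library. Between the edited libraries, 2923 genes were tested, 91 (3.11%) were higher in csnk1a1 g3UTR and 194 (6.64%) higher in jag1b g3UTR. A median-of-ratios scaling moved all genes by -0.06, 0.05, 0.13 and -0.12 on the log2 scale in the 4 comparisons.

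A single cell often set the difference. In the mutant 27 of the 61 higher genes had over 50% of their UMIs in 1 cell, and in csnk1a1 and jag1b g3UTR this held for 30 of 210 and 22 of 430. Of the higher genes taken by the fixed ranking against WT most were of this kind, though the first in the mutant, the transglutaminase tgm2l, had 122 UMIs from 8 cells with 45.1% in 1 cell. They included in the mutant the cartilage and notochord matrix genes col2a1a, col9a2 and epyc, with 1799, 409 and 279 UMIs that came from 2 cells each, in csnk1a1 g3UTR the globins, and in jag1b g3UTR the globins and the muscle genes myl10, myl13 and smyhc1, with 322, 313 and 139 UMIs from 3 cells each. The leukocyte lysozyme lyz had 244, 5, 1495 and 12 UMIs in members, with 95.5% of those in WT and 96.4% of those in csnk1a1 g3UTR from 1 cell. Such values describe individual cells, not the epidermis of a genotype. A narrower set was therefore also taken, after seeing this, of genes past 2-fold that were found in at least 10 cells of the higher library with no cell giving over 25% of the UMIs. It held 9 higher and 51 lower genes in the mutant, 134 and 74 in csnk1a1 g3UTR and 373 and 77 in jag1b g3UTR, each against WT, and 31 and 143 in csnk1a1 g3UTR against jag1b g3UTR.

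Within that narrower set, the mutant members had 581.5 CPM of zgc:86896 against 157 in WT (3.70-fold, interval 3.02 to 4.54), found in 25 of 40 and 36 of 69 cells. The caveolar coat gene cavin1b was 2.51-fold higher (1.89 to 3.33) and the survival gene mcl1b 2.21-fold higher (1.73 to 2.83). Levels of zgc:86896 and cavin1b were also above WT in the edited libraries, at 367 and 280 CPM in csnk1a1 g3UTR and 471 and 208 CPM in jag1b g3UTR, so WT stood low. The Fraser complex gene fras1, which ties basal epidermis to its basement membrane, was lower at 88.2 against 178 CPM (0.494-fold, 0.344 to 0.697), and nid2a, a basement membrane nidogen, was 0.386-fold (0.256 to 0.566). The other 9 basal-list genes tested were not past 2-fold, and the Wnt agonist rspo2 had 6 UMIs in the mutant against 64 in WT, 0.187-fold (0.0660 to 0.429). Its level was also below WT in csnk1a1 g3UTR, at 0.493-fold (0.3085 to 0.772), and was 0.784-fold (0.4985 to 1.21) in jag1b g3UTR, where the interval included 1. No junction gene of 12 and no epidermal transcription factor of 5 was past 2-fold, which with single libraries does not show that they were alike.

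Several genes were lower than WT in more than 1 library, and since WT is the shared reference the levels are given for each library. The gene nccrp1 had 287 CPM in WT, 101 in the mutant, 73.3 for csnk1a1 g3UTR and 91.4 for jag1b g3UTR, found in 46 of 69, 19 of 40, 33 of 106 and 37 of 122 cells. The homeobox gene emx3 had 58.0 CPM in WT, 4.20 in the mutant, 17.8 with csnk1a1 edited and 9.62 with jag1b edited. The unnamed gene CABZ01079276.1 had 274 CPM in WT, from 37 of 69 cells, against 44.1 in the mutant and 27.7 in csnk1a1 g3UTR, from 3 cells each, and 125 in jag1b g3UTR. WT stood high for each of these genes. For CABZ01079276.1 the cdh5-positive cells gave ratios to WT of 0.0728 and 0.135 in those libraries, so it moved with the library and not with epidermal cells in particular.

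The superficial list parted the edited libraries. Against WT, 6 of 12 superficial genes were lower in csnk1a1 g3UTR (anxa1c, evpla, evplb, icn2, lye and ppl) and none higher, against 3.59% of all genes lower. The list median was -1.38 on the log2 scale against 0.06 over all genes tested. None of these 6 genes was in the narrower set, because 1 WT cell gave 25.8% (icn2) to 52.9% (anxa1c) of the UMIs of each. In jag1b g3UTR 8 of 13 were higher than in WT (anxa1b, anxa1c, cldne, evpla, evplb, icn2, krt17 and ppl) and none lower, against 15.0% of all genes higher. The list median there was 1.02 against 0.13. Of these genes anxa1b, anxa1c, cldne and icn2 were outside the narrower set, with 28.3% to 45.5% of their UMIs from 1 jag1b g3UTR cell each. The envelope plakin evpla had 92.9 CPM in WT, 84.0 in the mutant, 11.1 for csnk1a1 g3UTR and 297 for jag1b g3UTR, found in 16 of 69, 10 of 40, 6 of 106 and 29 of 122 cells. The periplakin gene ppl had 143.5, 143, 40 and 337 CPM in the same order and was found in 29, 14, 23 and 35 cells, with 1 cell giving 38.2% of its UMIs in WT and 52.9% in the mutant. Csnk1a1 g3UTR was lowest and jag1b g3UTR highest for both plakins, with WT and the mutant between them at ratios of 0.904 (0.606 to 1.33) and 0.995 (0.732 to 1.34). Between the edited libraries evpla in csnk1a1 g3UTR was 0.0374-fold (0.0177 to 0.0704) and ppl 0.119-fold (0.0809 to 0.17) of jag1b g3UTR. In that comparison 9 of 13 superficial genes were lower in csnk1a1 g3UTR and none higher, against 6.64% of all genes lower. In cdh5-positive cells the genes called higher in jag1b g3UTR had ratios to WT of 2.43 (cldne) to 15.6 (anxa1c), except ppl at 0.914. Their rise was thus not seen in members only. The genes called lower in csnk1a1 g3UTR had ratios of 1.33 (evpla) to 10.1 (icn2) there, except ppl at 0.776. Some cdh5-positive cells met the epidermal rule but for a cdh5 UMI, and their part was not tested.

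The superficial set held 20 of 69 in WT, 11 of 40 in the mutant, 12 of 106 for csnk1a1 g3UTR and 31 of 122 for jag1b g3UTR, or 29.0% (18.7 to 41.2%), 27.5% (14.6 to 43.9%), 11.3% (5.99 to 18.9%) and 25.4% (18.0 to 34.1%). Within the superficial set evpla had 923, 860, 106 and 1599 CPM and was found in 65.0%, 63.6%, 25% and 83.9% of cells, while cldne had 1624, 2325, 1366 and 1862 CPM and was found in 85.0%, 90.9%, 58.3% and 74.2%. The 12 cells of csnk1a1 g3UTR had a median selection-gene share of 0.906%, under the 1% used above for a weak epidermal signal. That share was 3.42% in WT, 3.53% in the mutant and 2.34% for jag1b g3UTR, so the sets are not alike between libraries. In basal-set cells evpla was at 5.56 to 7.29 CPM in every library. The share of superficial-set members was lowest in csnk1a1 g3UTR, but in jag1b g3UTR it was below that of WT. At equal depth the superficial list, with or without the basal list, was carried by 44.4% of csnk1a1 g3UTR members and 46.4% of WT members. That measure also counts cells with the basal list, so it is not comparable with the share of the superficial set. Since the set was chosen by a list that includes the plakins, these levels are a description, and the part of the number of such cells and of the level per cell was not tested. The summed superficial list followed another order, at 19591, 22351, 11400 and 15451 CPM, and its most abundant keratin, cyt1l (11590, 15681, 6578 and 6211 CPM), was lower in both edited libraries. A few cells held much of the low-abundance genes, with 80.9% of anxa1c and 71.0% of icn2 in 1 mutant cell each and 65.1% of icn2 in 1 csnk1a1 g3UTR cell.

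**Figure D5:**
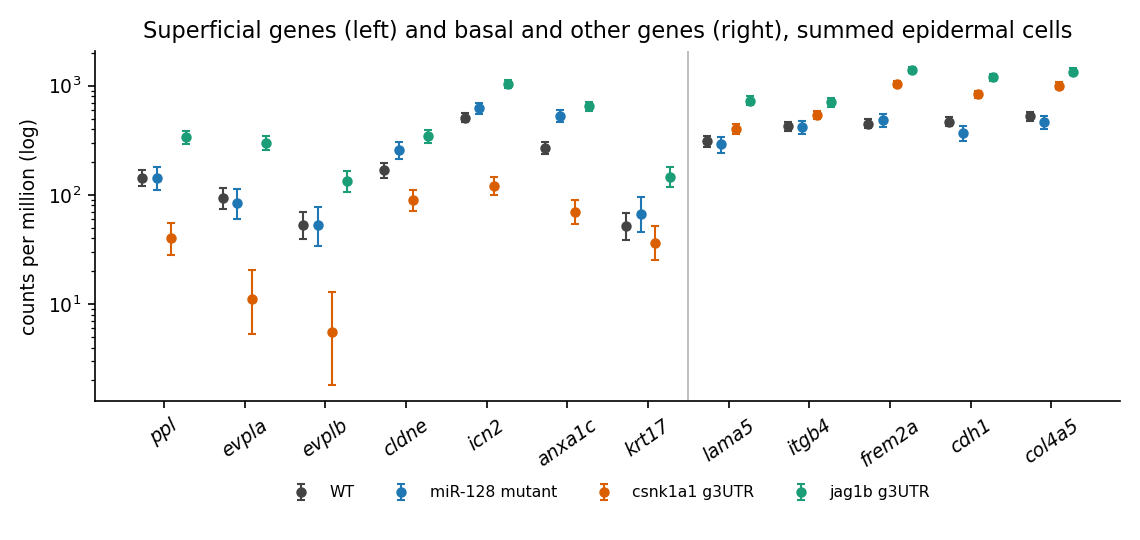
Level of 7 superficial-layer genes (left of the line) and of basal, junction and collagen genes (right) over the summed epidermal cells of each library, in CPM on a log axis with exact 95% Poisson intervals that cover counting error only. The csnk1a1 g3UTR points lie below all others for the superficial genes, as for evpla with 11.1 against 84.0 to 297 CPM, although for krt17 the intervals overlap those of WT and the mutant. On the right the jag1b g3UTR points lie highest for the genes shown (lama5, itgb4, frem2a, cdh1 and col4a5). Other genes of those lists did not follow, such as krtt1c19e, highest in csnk1a1 g3UTR, and cldnb, at 402 CPM against 792 in WT. Of 31 collagen genes 14 were higher and 6 lower in jag1b g3UTR than in WT.

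Several basal genes were higher in jag1b g3UTR. Of 10 basal genes tested 5 were past 2-fold above WT (frem2a, itga3b, lama5, lamb4 and plecb) and none was lower, against 15.0% of all genes higher. Of 12 junction genes only cdh1 and dspa, or 2, were past 2-fold higher, a share near that of all genes. The laminin chain lama5 had 311, 290, 400 and 731 CPM in WT, the mutant, csnk1a1 g3UTR and jag1b g3UTR, and cdh1 had 467, 365, 837 and 1194 CPM, from 53, 31, 87 and 105 cells. For both genes the largest share from 1 cell was 16.7%, so no single cell carried the difference. In csnk1a1 g3UTR 2 of 10 basal genes were higher than in WT, against 6.74% of all genes. They were frem2a at 2.33-fold (2.08 to 2.62) and krtt1c19e at 2.13-fold (2.0 to 2.27), and in jag1b g3UTR frem2a was at 3.12-fold (2.78 to 3.51). In cdh5-positive cells these genes were near 0 but in the same direction: lama5 had 0.985 CPM in WT and 3.40 in jag1b g3UTR, cdh1 1.45 and 5.71, and frem2a 4.57 and 11.8. The direction was thus the same in both populations. However, the cdh5-positive cells included cells that met the epidermal rule but for a cdh5 UMI, 17 in WT and 86 in jag1b g3UTR. The part of those cells in these low levels was not tested.

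The cdh5-positive cells come from the same libraries, and their ratios were read for the same genes. Of the 430 higher genes of jag1b g3UTR 170 were past 2-fold higher in cdh5-positive cells too and 413 were above 1 there, while of all 2866 genes tested 11.8% were past 2-fold higher and 56.6% above 1 in cdh5-positive cells. In csnk1a1 g3UTR this held for 52 and 185 of 210, against 5.36% and 58.8% of all 3117 genes. Of the 112 lower genes of csnk1a1 g3UTR 12 were past 2-fold lower in cdh5-positive cells too, against 0.77% of all genes tested. Of the 113 lower genes of jag1b g3UTR 5 were, against 0.698% of all genes tested. Leading the widely found genes in jag1b g3UTR were the small nuclear RNA rn7sk (25-fold in members, 22.3-fold in cdh5-positive cells), the mitochondrial feature NC_002333.17 (10.7-fold and 6.60-fold) and the histone gene hist1h4l (13.3-fold and 7.55-fold). In csnk1a1 g3UTR rn7sk was 15-fold and 9.80-fold and NC_002333.17 2.63-fold and 2.15-fold, while the mitochondrial transcripts COX3 and mt-co2 were 0.397-fold and 0.448-fold in members and 0.418-fold and 0.494-fold in cdh5-positive cells. Histone and 7SK RNAs mostly lack a poly(A) tail, and their level moved with the library in both populations, so the part of library preparation and processing cannot be told apart from genotype.

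Other genes of csnk1a1 g3UTR moved more in members than in endothelium. The chaperone cofactor bag3 was 17.5-fold higher than WT in members (5.66 to 87.9) and 1.29-fold in cdh5-positive cells, with 50 UMIs in 17 cells against 3 UMIs in 2. The YAP targets of mammals ctgfa and cyr61 were 8.65-fold (4.32 to 19.7) and 3.97-fold (2.91 to 5.49) in members and 1.39-fold and 1.21-fold in cdh5-positive cells. All 3 were thus near the WT level in endothelium. In mutant members ctgfa was as high as in csnk1a1 g3UTR, at 81.9 and 82.1 CPM against 9.50 in WT. The claudin cldnb was lower at 340 against 792 CPM (0.429-fold, 0.374 to 0.490) and 1.56-fold in cdh5-positive cells, and the growth factor gene mdka was 0.495-fold (0.467 to 0.525) against 0.894-fold. Among cdh5-positive cells 45 in csnk1a1 g3UTR and 17 in WT met the epidermal rule but for a cdh5 UMI. Their part in the cldnb value was not tested, so 1.56-fold is not read as an endothelial level. In jag1b g3UTR the chemokine cxcl8b.1 was 0.263-fold of WT (0.186 to 0.365) in members and 1.90-fold in cdh5-positive cells, and the NF-kappaB inhibitor nfkbiab 0.408-fold (0.334 to 0.496) against 0.581-fold. Whether members and endothelium differ in these ratios was not tested, as single libraries allow no such test.

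Proliferation genes also followed the library. Of 8 G2/M genes tested 4 were higher than in WT in csnk1a1 g3UTR (cenpf, kif11, mki67 and top2a), against 6.74% of all genes. In jag1b g3UTR 6 were higher (the same 4 with plk1 and tpx2), against 15.0% of all genes. The summed G2/M list was 382 CPM in WT, 283 in the mutant, 666 for csnk1a1 g3UTR and 904 for jag1b g3UTR. In cdh5-positive cells it was 587, 478, 705 and 830 CPM, in the same order of libraries. The S phase list, at 531, 388, 585 and 592 CPM in members, had 1 gene past 2-fold in each edited library.

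The genes whose 3′UTR was edited were both measured in members. The kinase gene csnk1a1 had 338 CPM in WT, 321 in the mutant, 259 for csnk1a1 g3UTR and 306 for jag1b g3UTR, a ratio to WT of 0.766 in csnk1a1 g3UTR (0.644 to 0.910) and of 0.951 (0.779 to 1.16) in the mutant. The Notch ligand jag1b had 29.5, 33.6, 33.3 and 46.5 CPM, from 28, 16, 30 and 29 UMIs, a ratio to WT of 1.57 in jag1b g3UTR (0.904 to 2.75). By summed CPM csnk1a1 was below WT in csnk1a1 g3UTR, whereas at 3000 UMIs a cell it was found in 48.2% of members in WT (34.7 to 62.0%), 69.4% in the mutant (51.9 to 83.7%), 62.5% for csnk1a1 g3UTR (50.3 to 73.6%) and 63.2% for jag1b g3UTR (50.7 to 74.6%), so no order is read from it. No difference in jag1b was detectable at this depth. By qRT-PCR on pools of embryos, at an earlier stage than here and not limited to epidermal cells, the paper reported that each edit raised the transcript of its own gene. An edit of a 3′UTR site need not change the tagged RNA, so the levels in members do not check the labels. The Notch receptors notch2 and notch3 were 2.68-fold (1.53 to 4.81) and 2.18-fold (1.60 to 3.0) of WT in jag1b g3UTR, beside 1.93-fold and 1.78-fold in cdh5-positive cells, and 2 of 5 Notch genes tested were past 2-fold higher in the library where 15.0% of all genes were.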

How the data were processed

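The deposited files were Cell Ranger count matrices with 1 value per gene and barcode, for which the authors aligned and counted reads as UMI counts without normalization (Cell Ranger 5.0.0 in the headers of WT and the miR-128 mutant, 6.0.1 in those of both g3UTR libraries). Seurat is named in the submitters' notes, and the genome build is not given in the sources used here. Genes were used by the symbols that the files pair with their identifiers, 36351 in all. From these counts Python 3.11.15, numpy 2.4.6, scipy 1.17.1 and pandas 2.3.3 were used to find members by the rule, to sum UMIs per library, and to compute Clopper-Pearson, Poisson and conditional binomial intervals. Since molecular identifiers were counted, intervals refer to tagged molecules, and a few cells can set a sum. Totals ran from 69980329 to 144258953 UMIs in 9380 to 12918 barcodes a library, 43568 barcodes in all, and 26 to 55 barcodes were shared by pairs of libraries.

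Members and gene lists (28 lists, 322 entries, 6 symbols unmatched) were chosen with earlier results of these data known. Leading genes were the 25 with the highest lowest-of-4-libraries ratio among genes found in at least 20% of members of each library. For each library comparison the 8 genes on each side with the interval bound farthest from 1 were taken, and for the layers the 10 on each side beyond the lists. Genes of the narrower set were named after their values were seen. No doublet caller was run: the UMI maximum and the bar on cdh5 stood in, and members with 3 or more endothelial genes were left out as an alternative. In simulated counts on the members' depths, 99 or 100 of 100 changed genes were recovered on each side. That recovery checks the calculation only. It gives no error rate for the reported calls, because in the measured libraries a single cell often held much of a gene's UMIs. Other filters, pseudocounts, scalings and subsets of members were tried as alternatives.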

Additional observations from a re-analysis of the deposited data

Results flagged for a closer look

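Cells that met the rule except that they had a cdh5 UMI were not members, but they stayed among the cdh5-positive cells of the comparisons. They numbered 17 in WT, 19 in the miR-128 mutant, 45 for csnk1a1 g3UTR and 86 for jag1b g3UTR, or 0.157%, 0.232%, 0.613% and 0.900% of cdh5-positive cells. They drew attention because they combined epidermal and endothelial genes: the median was 175, 77, 15 and 18 UMIs of the selection genes and 8, 7, 6 and 4 UMIs of cdh5 a cell, with kdrl at 991, 1826, 2073 and 3944 CPM and krt4 at 12615, 12609, 5823 and 10453 CPM. Of these 167 cells 32 had a single cdh5 UMI. Their median depth of 20471, 14993, 11108 and 2993 UMIs was above that of the cdh5-positive cells in the first 3 libraries and below it in jag1b g3UTR. Doublets and free RNA were not tested for these cells.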

How the results depend on the processing

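Of 132 alternative values 93 were counted as the same as the value reported, 38 as moved and 1 as reversed. The first class was wide. It included 741 genes past 2-fold in jag1b g3UTR over WT with the mean of cell CPM, against 543 reported. It also included 5.97% of WT members in the basal range without the selection genes, against 2.90% with them. The epidermal share ratios kept their direction against WT in each alternative. Without the selection genes the percent of scored members in the basal range was 5.97% in WT, 5.128% in the miR-128 mutant, 40.62% for csnk1a1 g3UTR and 36.28% with jag1b edited. Counts past 2-fold between libraries, in the order miR-128 mutant over WT, csnk1a1 g3UTR over WT, jag1b g3UTR over WT and csnk1a1 g3UTR over jag1b g3UTR, were 355, 785, 1219 and 735 with at least 20 UMIs, 34, 74, 126 and 71 with at least 200, 603, 1323, 2058 and 1233 with no filter, and 323, 731, 1057 and 648 at a fold of 1.5. With the mean of cell CPM the first pair became 343 and 521, and in cells carrying the basal list, chosen after seeing the data, the last became 166. Against cdh5-positive cells, 2225 genes were lower with 1 CPM added, 533 higher and 714 lower with 20 CPM added, and 819 lower against trunk mesenchyme. The superficial list over WT was 1.212 (mean of cell CPM) and 1.188 (median-of-ratios) in the miR-128 mutant, 0.5615 (median-of-ratios) and 0.6288 (selection genes at least 1% of UMIs) in csnk1a1 g3UTR, and 0.5866 (mean of cell CPM), 0.7231 (median-of-ratios), 0.7593 (at least 1%) and 0.8338 (at least 2000 UMIs) in jag1b g3UTR. The basal list over WT reversed to 0.9381 in the miR-128 mutant with the mean of cell CPM, was 2.136 (mean of cell CPM) and 2.072 (at least 1%) in csnk1a1 g3UTR, and 2.19 (mean of cell CPM) and 1.672 (median-of-ratios, and also at least 1%) in jag1b g3UTR. The settings at least 1% and at least 2000 UMIs were chosen after seeing the data, and the cause of these moves was not tested beyond what each setting changes. No paired analysis was possible because each group has 1 library. Depth limits genes with few UMIs, and 82 members had under 2000 UMIs.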
